A study of Homo sapiens with 9 samples.

Results

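The MYC, MAX and MXD network was followed through 10 genes: the activators MYC and MYCL, their obligate partner MAX, the antagonists MXD1, MXD3, MXD4, MXI1, MNT and MGA, and the MAX-like protein MLX. They were matched by Ensembl gene ID among 60308 gene IDs, and all 10 passed the filter on low counts that left 18435 genes for testing. RNA of 9 cultures of MCF10A, an immortalised and non-tumorigenic line of human breast epithelial cells, had been sequenced as ribosome-depleted, strand-specific total RNA. Every culture, the controls included, carried pBABE-hygro-MYC and pMN-IRES-GFP-PI3KH1047R, that is, ectopic MYC and the H1047R form of PI3K, an activating mutant of the kinase's catalytic subunit. Each also carried a doxycycline-inducible hairpin: pLKO-tetON-puro-shG9a 1 (shG9a_1, 3 replicates) or pLKO-tetON-puro-shG9a 4 (shG9a_4, 3 replicates), both directed at EHMT2, or pLKO-tetON-puro-shSCR (shSCR, the scrambled control, 3 replicates). EHMT2 encodes G9a, an enzyme that methylates lysine 9 of histone H3. All cultures were given 2 µg/mL doxycycline for 72 hours. The series title ties MYC to G9a, and the comparison here asks whether RNA of MYC and its partners differed after the hairpins against EHMT2. Counts of MYC do not separate the endogenous gene from the ectopic copy, and all groups come from a single cell line.

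Proteins of this network have a basic helix-loop-helix leucine zipper and act as dimers. MYC binds DNA together with MAX at E-boxes, of which CACGTG is the preferred form, and recruits coactivators that raise transcription. MXD proteins, MNT and MGA compete for MAX and, through SIN3 and histone deacetylases or, for MGA, through the Polycomb-type complex PRC1.6, lower transcription at overlapping sites. MLX takes the place of MAX in dimers with some MXD proteins, MNT and the glucose-sensing Mondo proteins MLXIP and MLXIPL. In breast epithelium, MYC drives growth and its amplification is frequent in tumours, while MXD proteins are linked to exit from the cell cycle and differentiation.

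The DNA element read by these dimers also stood in front of some of the members' own genes. CACGTG was searched in windows from 250 bases before to 50 bases after annotated gene starts (RefSeq, GRCh38.p14), of which 14 windows belonged to 9 members. The motif reads alike on both strands, so a single search covers both. MYC was the member without a window and was not searched. The motif was found for 3 of the 9 members, MXD4, MNT and MLX, and in 2548 of all 35116 windows (7.26%), a share of windows and not of genes. The 100 bases around each match are shown in the direction of transcription, with the E-box in capitals.
MXD4, chr4:2262260-2262359, minus strand: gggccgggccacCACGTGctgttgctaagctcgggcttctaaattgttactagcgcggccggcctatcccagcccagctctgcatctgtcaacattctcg
MNT, chr17:2401201-2401300, minus strand: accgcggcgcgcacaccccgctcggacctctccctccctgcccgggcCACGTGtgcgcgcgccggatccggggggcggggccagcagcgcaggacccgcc
MLX, chr17:42567000-42567099, plus strand: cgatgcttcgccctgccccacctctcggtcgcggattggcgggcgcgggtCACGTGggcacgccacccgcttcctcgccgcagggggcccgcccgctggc
The box begins 238 bases before the start in MXD4, 193 in MNT and 50 in MLX. These are matches of letters; binding was not measured in these libraries, and the lack of a match in the other windows concerns those windows only.

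The libraries held between 53065611 and 76958831 reads assigned to genes and between 26759 and 28346 detected genes. EHMT2 was at 17.6, 22.6 and 21.0 CPM (read counts scaled to a common library size) in shG9a_1 libraries and at 32.1, 27.2 and 33.4 CPM in shG9a_4 libraries, against 51.1, 45.2 and 45.4 CPM in shSCR libraries. No hairpin library reached the lowest shSCR value. EHMT2 fell by 1.21 ± 0.11 (SE) on the log2 scale in shG9a_1 (adjusted p = 0.00766, edgeR quasi-likelihood test), and that call was lost without shG9a_1 replicate 2 (0.0513), shG9a_1 replicate 3 (0.0622) or shSCR replicate 1 (0.0611). In shG9a_4 its log2 fold change was -0.61 ± 0.11, with an adjusted p of 0.259 by that test and 0.000701 by DESeq2. All 10 epithelial markers were detected, with summed levels of 4943 to 6946 CPM in shG9a_1, 3912 to 6147 CPM in shG9a_4 and 3883 to 5892 CPM in shSCR. Of these 10 markers, 7 had a positive fold change in shG9a_1 and 10 in shG9a_4 over shSCR. KRT14, a basal keratin, passed the edgeR test with the replicate number as a block in both hairpins, by 0.87 ± 0.10 on the log2 scale in shG9a_1 (adjusted p = 0.00576) and 0.74 ± 0.10 in shG9a_4 (0.0149) over shSCR, and in neither without the block (0.633 and 1.00). EPCAM, an epithelial adhesion molecule, was at -0.57 ± 0.11 in shG9a_1 with the block (adjusted p = 0.0511, edgeR) and at 0.13 ± 0.11 in shG9a_4 (1.00). The 4 endothelial markers that were matched summed to at most 2.98 CPM in any library, and the 6 blood markers to at most 0.275 CPM. HBB had no reads in any group, and CD3E none in either hairpin group. The 8 fibroblast markers summed to 197 to 421 CPM in shG9a_1, 140 to 417 CPM in shG9a_4 and 159 to 337 CPM in shSCR; most of this was DCN, at 135 to 413 CPM, while THY1 stayed at or below 0.133 CPM. The part of these lists in the members' values was not tested, and in bulk RNA fewer expressing cells and less RNA per cell cannot be told apart.

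MYC was the most abundant member in every group when levels were scaled by length, as CPM per kilobase of merged exons. It averaged 60.6 ± 4.79 in shG9a_1, 60.9 ± 12.4 in shG9a_4 and 62.0 ± 5.92 CPM per kilobase in shSCR (SD, n = 3 each). MLX came next, at 18.0 ± 1.02, 18.6 ± 0.689 and 18.2 ± 0.364 CPM per kilobase in shG9a_1, shG9a_4 and shSCR. MYC and MLX each stood apart from their neighbours in all 3 groups. MAX, at 8.52 ± 0.156 in shG9a_1, 8.25 ± 0.0559 in shG9a_4 and 8.95 ± 0.411 CPM per kilobase in shSCR, and MXD4, at 8.64 ± 2.80, 8.18 ± 1.28 and 7.43 ± 0.104 in the same groups, held the next places. MXD4 averaged above MAX in shG9a_1 and below it in shG9a_4 and shSCR; the pair overlapped in both hairpin groups and did not in shSCR. MXI1 (4.41, 4.70 and 5.25 CPM per kilobase in shG9a_1, shG9a_4 and shSCR), MGA (3.79, 3.69 and 3.99) and MXD1 (3.62, 3.54 and 3.64) formed the middle of the order. MGA and MXD1 overlapped in both hairpin groups, and MXI1 and MGA in shG9a_1. MNT averaged 0.898, 1.08 and 1.08 CPM per kilobase in shG9a_1, shG9a_4 and shSCR and overlapped MXD3 (0.728, 0.674 and 0.613) in both hairpin groups. MYCL closed the order at 0.0736, 0.0743 and 0.0728 CPM per kilobase.

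**Figure D1:**
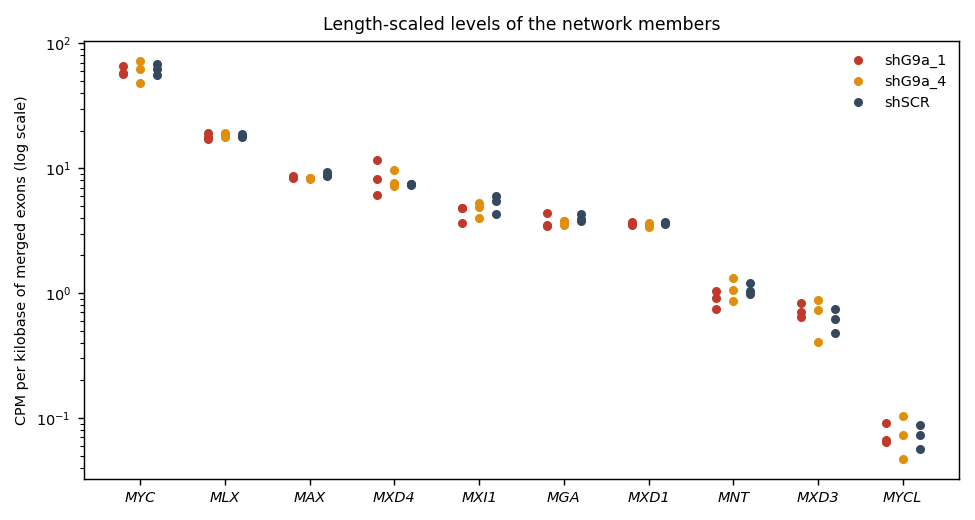
Length-scaled levels of the 10 members in each of the 9 libraries, ordered by their mean in shSCR. The vertical axis gives CPM per kilobase of merged exons on a log scale and each point is a library. MYC lies between 48.1 and 72.7 and MYCL at or below 0.103, and for every member the 3 groups lie close together on this scale.

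The antagonists together stayed well below MYC on this length scale. MYC counts include the ectopic copy, and merged exons span 3001 bases for MYC and 17651 for MGA, so the values need not reflect numbers of transcripts. The summed length-scaled level of MXD1, MXD3, MXD4, MXI1, MNT and MGA was 22.1 ± 3.02 CPM per kilobase in shG9a_1 and 21.9 ± 1.02 in shG9a_4, against 22.0 ± 0.790 in shSCR (SD, n = 3 each). Divided by MYC, it came to 0.366 ± 0.0599 in shG9a_1 and 0.368 ± 0.0708 in shG9a_4, against 0.357 ± 0.0370 in shSCR. The differences between group means were smaller than the SD within any group. MXD4 was the most abundant of the 4 MXD genes, with 48.9 ± 8.10% of their summed level in shG9a_1 and 47.7 ± 5.38% in shG9a_4, against 43.9 ± 2.51% in shSCR.

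MYC, the transcription factor after which the network is named, had 172, 175 and 198 CPM with shG9a_1 and 186, 144 and 218 CPM with shG9a_4, against 186, 169 and 204 CPM with shSCR. The groups overlapped fully, and the spread within shG9a_4 was wider than any difference between group means. The log2 fold change was -0.03 ± 0.13 (SE) in shG9a_1 over shSCR, an average of 0.978-fold with a 95% interval of 0.799- to 1.20-fold. In shG9a_4 over shSCR it was -0.03 ± 0.13, or 0.982-fold with an interval of 0.803- to 1.20-fold. The hairpins differed from each other by -0.01 ± 0.13 (shG9a_1 minus shG9a_4), a difference whose sign turned to 0.01 with the replicate number as a block. The edgeR adjusted p-values were 0.977, 1.00 and 1.00 in these 3 comparisons. In the fit with the block the log2 intervals were narrower, from -0.20 to 0.14 in shG9a_1 and from -0.21 to 0.13 in shG9a_4 over shSCR. Changes inside the intervals of a fit cannot be told from no change by that fit, with 3 libraries a group.

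MYCL, a relative of MYC first known from lung cancer, was close to the detection limit, with 13 to 33 reads per library. It had 0.326, 0.457 and 0.334 CPM with shG9a_1 and 0.368, 0.522 and 0.238 CPM with shG9a_4, against 0.448, 0.286 and 0.372 CPM with shSCR. The groups overlapped, and the interval of the fold was wide, from 0.620 to 1.68 in shG9a_1 over shSCR and from 0.629 to 1.70 in shG9a_4 over shSCR. MYCL has processed copies annotated as MYCLP1 and MYCLP2, so its few reads are uncertain. MYCN, the third MYC gene, had no reads in any of the 9 libraries, which allows at most 0.0390 to 0.0559 CPM per library (3 counts, counting error only).

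MAX, the partner that MYC, the MXD proteins, MNT and MGA all need, varied little within the groups. It had 38.5, 37.1 and 37.7 CPM with shG9a_1 and 36.7, 36.7 and 36.3 CPM with shG9a_4, against 38.2, 41.7 and 39.2 CPM with shSCR. All 3 shG9a_4 libraries lay below all 3 shSCR libraries, a comparison in which the groups did not overlap for 6.43% of all genes. They also lay below all 3 shG9a_1 libraries (no overlap for 9.16% of all genes), whereas shG9a_1 and shSCR overlapped. The log2 fold change was -0.12 ± 0.06 (SE) in shG9a_4 over shSCR (unadjusted p = 0.0949, adjusted p = 1.00, edgeR) and -0.07 ± 0.06 in shG9a_1 over shSCR (adjusted p = 0.856, edgeR). The interval of the fold in shG9a_4 over shSCR ran from 0.835 to 1.02.

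MLX, which pairs with Mondo proteins and some MXD proteins, had 81.1, 76.4 and 72.5 CPM with shG9a_1 and 82.1, 76.2 and 79.0 CPM with shG9a_4, against 79.4, 77.3 and 76.4 CPM with shSCR. The groups overlapped, with folds of 0.987 (95% interval 0.897 to 1.09) in shG9a_1 and 1.02 (0.925 to 1.12) in shG9a_4 over shSCR. These were among the narrowest intervals of the network. Of its Mondo partners, MLXIP was at 31.7 to 41.6 CPM in shG9a_1, 28.0 to 43.5 CPM in shG9a_4 and 34.9 to 41.1 CPM in shSCR, and MLXIPL, better known from liver, never exceeded 0.110 CPM.

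**Figure D2:**
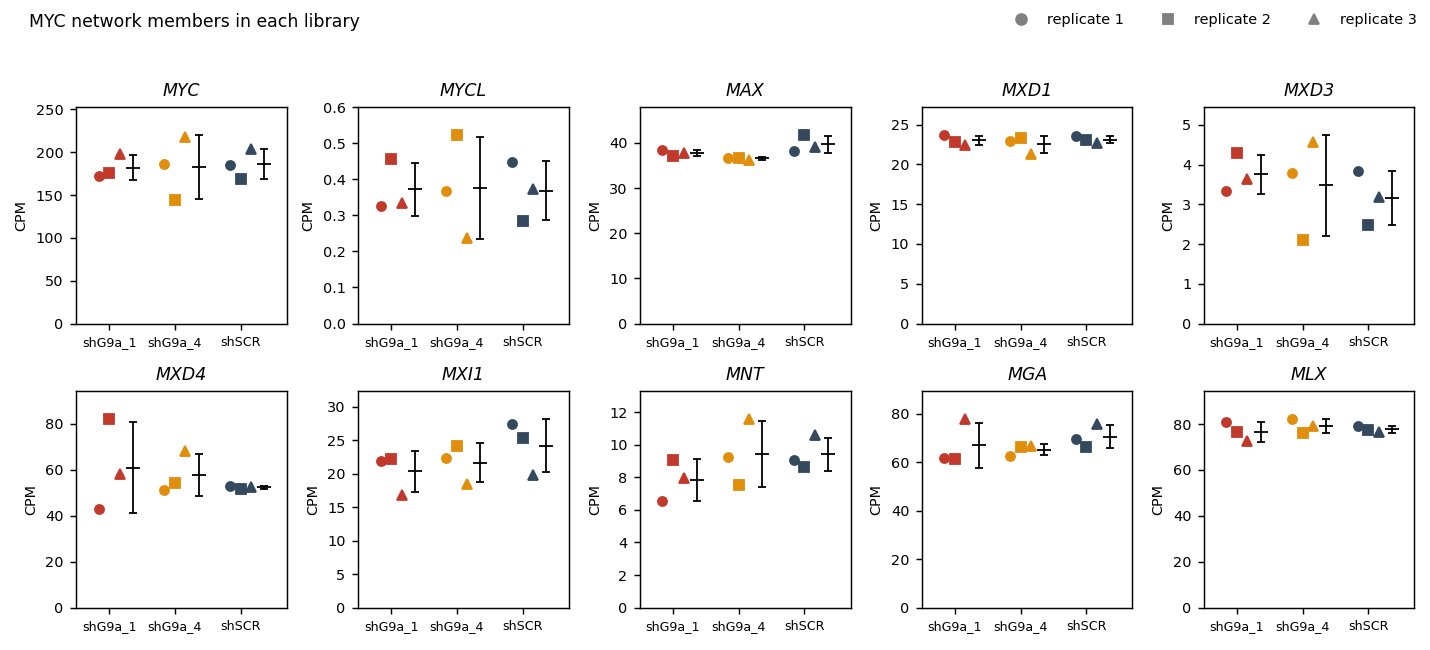
Level of each member in every library, as CPM on a linear axis that begins at 0 in each panel, with the groups ordered shG9a_1, shG9a_4 and shSCR. Symbols mark the replicate number of the labels, and the horizontal tick and bar to the right of each group give the mean and SD of its 3 libraries. The shG9a_4 points of MAX (36.3 to 36.7 CPM) lie below its shSCR points (38.2 to 41.7 CPM). These 2 groups did not overlap for 6.43% of all genes. MXD4 shows a single high shG9a_1 point at 82.0 CPM.

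Among the MXD antagonists, MXD1, which is known from differentiating cells, varied little between libraries. It had 23.7, 22.9 and 22.5 CPM with shG9a_1 and 22.9, 23.3 and 21.4 CPM with shG9a_4, against 23.6, 23.1 and 22.7 CPM with shSCR. The groups overlapped, with folds of 0.995 (95% interval 0.888 to 1.11) in shG9a_1 and 0.973 (0.869 to 1.09) in shG9a_4 over shSCR.

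MXD3, the family member linked to S phase, had 3.33, 4.29 and 3.64 CPM with shG9a_1 and 3.77, 2.09 and 4.56 CPM with shG9a_4, against 3.83, 2.47 and 3.18 CPM with shSCR. The groups overlapped, and the folds of 1.19 (0.797 to 1.78) in shG9a_1 and 1.10 (0.736 to 1.64) in shG9a_4 over shSCR had wide intervals. With each library left out in turn, its log2 value in shG9a_1 ran from 0.10 to 0.41. Its exons overlap those of PRELID1, a mitochondrial lipid transfer gene on the opposite strand at 261 to 307 CPM. Of the stranded reads at MXD3, 97.8 to 99.1% lay on that opposite strand, and the part of PRELID1 in the MXD3 counts was not tested. RAB24 overlaps it on the same strand, at 0.391 to 0.763 CPM.

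MXD4, an antagonist of resting and differentiating cells, had 42.8, 82.0 and 58.2 CPM with shG9a_1 and 51.1, 54.1 and 68.1 CPM with shG9a_4, against 53.0, 51.6 and 52.6 CPM with shSCR. The hairpin libraries were far more scattered than the shSCR libraries and lay on both sides of them. The log2 fold change was 0.22 ± 0.19 (SE) in shG9a_1 and 0.14 ± 0.19 in shG9a_4 over shSCR (edgeR adjusted p = 0.847 and 1.00). Without shG9a_1 replicate 2, the highest library, the shG9a_1 value was -0.05.

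MXI1, also called MXD2, had the lowest hairpin values relative to its control among the MXD genes. It was at 22.0, 22.2 and 16.8 CPM with shG9a_1 and at 22.4, 24.1 and 18.5 CPM in shG9a_4, against 27.4, 25.3 and 19.8 CPM in shSCR. The groups overlapped, and the library numbered 3 was the lowest in each of them. The log2 fold change was -0.25 ± 0.15 (SE) in shG9a_1 and -0.16 ± 0.15 in shG9a_4 over shSCR, with edgeR adjusted p-values of 0.764 and 1.00. With each library left out in turn, the value ran from -0.38 to -0.13 in shG9a_1 and from -0.30 to -0.05 in shG9a_4. Set against the shSCR library of the same number, MXI1 differed by -0.32, -0.19 and -0.24 on the log2 scale in shG9a_1 and by -0.29, -0.07 and -0.11 in shG9a_4. It was thus lower in 6 of 6 same-number pairs, a pattern shown by no other member (MAX was lower in 5) and by 5.67% of all genes tested. Both hairpins are set against the same shSCR libraries, so these pairs are not independent. With the number as a block, the shG9a_1 value of -0.25 ± 0.08 had an unadjusted p of 0.00716 and an edgeR adjusted p of 0.167; in that fit 13.3% of all genes had an unadjusted p under 0.05.

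MNT, the most widely expressed antagonist of MYC, had 6.52, 9.04 and 7.96 CPM with shG9a_1 and 9.23, 7.55 and 11.6 CPM with shG9a_4, against 9.08, 8.62 and 10.6 CPM with shSCR. The groups overlapped, with a negative value for a single hairpin and a value near 0 for the other: the log2 fold change was -0.26 ± 0.17 (SE) in shG9a_1 and 0.00 ± 0.17 in shG9a_4 over shSCR, and their difference of -0.27 ± 0.17 (shG9a_1 minus shG9a_4) had an edgeR adjusted p of 1.00. The sign of the shG9a_4 value changed with the scaling, and the shG9a_1 value ran from -0.38 to -0.14 with each library left out in turn. MGA, the largest protein of the network and the scaffold of PRC1.6, had 61.9, 61.2 and 77.6 CPM with shG9a_1 and 62.5, 66.2 and 66.6 CPM with shG9a_4, against 69.7, 66.2 and 75.6 CPM with shSCR. Its groups overlapped, with folds of 0.949 (95% interval 0.821 to 1.10) in shG9a_1 and 0.924 (0.799 to 1.07) in shG9a_4 over shSCR.

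Across the network, no member passed an adjusted p of 0.05 in any of the 3 hairpin comparisons by edgeR's quasi-likelihood test, where 7 of 18435 genes (0.038%) did in shG9a_1 against shSCR, 5 (0.0271%) in shG9a_4 against shSCR and 0 (0.0%) between the hairpins. The 7 genes became 0 or 1 without any single shG9a_1 or shSCR library or shG9a_4 replicate 1, and the 5 became 0 without any single library other than shG9a_4 replicate 3. With so few calls among all genes, the absence of members from them says little about the members. At an unadjusted p under 0.05 the members numbered 0 in each comparison as well, beside 7.5%, 2.38% and 4.09% of all genes in the same order. DESeq2 called no member either, and gave no adjusted p for MYCL in shG9a_4 against shSCR. The groups did not overlap for 0 of 10 members in shG9a_1 against shSCR (14.7% of all genes), for 1 in shG9a_4 against shSCR (6.43%) and for 1 in shG9a_1 against shG9a_4 (9.16%); both of these were MAX. Of the 10 members, 3 had a positive fold change in shG9a_1 and 5 in shG9a_4 over shSCR, with median log2 values of -0.03 and -0.01, where 50.2% and 50.8% of all genes were positive with medians of 0.00 and 0.00. Both hairpin comparisons share the shSCR libraries. With the replicate number as a block, edgeR called 143 genes (0.776%) in shG9a_1 and 14 (0.0759%) in shG9a_4 against shSCR, again with no member among them.

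**Figure D3:**
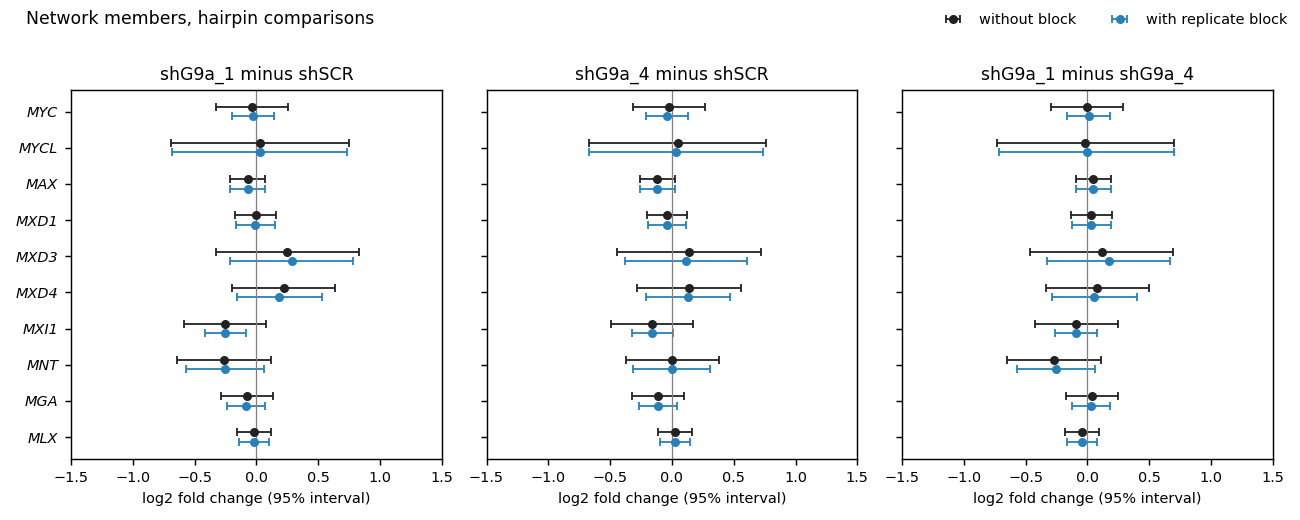
Log2 fold changes of the 10 members with 95% intervals from the fit across all genes, without the block (black) and with the replicate number as a block (blue). The panels show shG9a_1 minus shSCR, shG9a_4 minus shSCR and shG9a_1 minus shG9a_4. All intervals without the block cross 0; with it, the interval of MXI1 in shG9a_1 minus shSCR runs from -0.42 to -0.08 and the others cross 0.

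The authors' deposited table for each hairpin gave the same members low values in the column named PPDE, read here as the posterior probability of differential expression. The highest in the authors' deposited tables were 0.114 for MAX in shG9a_4 and 0.0304 for MNT in shG9a_1, where 322 of 10748 genes in shG9a_1 and 66 of 10745 in shG9a_4 exceeded 0.95. The column named RealFC in the authors' deposited tables held 0.970 in shG9a_1 and 0.977 in shG9a_4 for MYC, with values under 1 meaning lower in the hairpin group than in shSCR. For MXI1 the same column of the authors' deposited tables held 0.833 in shG9a_1 and 0.895 in shG9a_4, and for MNT 0.824 and 1.03.

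The replicate number of the labels separated some members more clearly than the hairpin did. By edgeR's quasi-likelihood test of the number, with the hairpin group in the model, 1377 of 18435 genes (7.47%) differed between the numbers, MYC and MXI1 among them. MYC was at 198, 218 and 204 CPM in the libraries numbered 3 (shG9a_1, shG9a_4 and shSCR), above all 6 others, and averaged lowest in those numbered 2, at 175, 144 and 169 CPM. It was higher in number 3 than in number 2 by 0.35 ± 0.08 (SE) on the log2 scale (adjusted p over the numbers 0.0452, edgeR). That call was lost with unstranded counts (0.0807) and without shG9a_1 replicate 3 (0.132), shG9a_4 replicate 1 (0.0653), shG9a_4 replicate 3 (0.285), shSCR replicate 1 (0.0703), shSCR replicate 2 (0.107) or shSCR replicate 3 (0.142). MXI1 went the other way: its 3 libraries numbered 3 lay below the 6 others, and it was lower in number 3 than in number 2 by a log2 difference of -0.38 ± 0.08 (adjusted p 0.0150, edgeR). This call was lost without shG9a_1 replicate 3 (0.127), shG9a_4 replicate 3 (0.0847) or shSCR replicate 3 (0.146). Of the 10 members, 1 (MYC) had all libraries numbered 3 above the others, as did 6.92% of all genes, and 2 (MXD1 and MXI1) had them below, as did 7.21%. MXD1 differed by only -0.06 ± 0.07 between numbers 3 and 2 and was not called. MLX had its libraries numbered 1 (79.4 to 82.1 CPM) above all others (at most 79.0 CPM) and was not called either (adjusted p 0.504, edgeR). The share of all genes with number 1 above the others was not counted. MLXIP, the Mondo partner of MLX, was at 41.1 to 43.5 CPM in the libraries numbered 3, against 28.0 to 36.6 CPM in the 6 others (adjusted p 0.0431, edgeR). Some epithelial markers differed more between numbers 3 and 2, such as EPCAM by 1.45 (adjusted p 8.96e-05, edgeR) and KRT17 by 1.56 (0.000124). The fibroblast marker DCN differed by -1.26 (7.51e-05), whereas KRT18 (0.0689) and COL1A1 (0.806) were not called. The part of these markers in the values of MYC and MXI1 was not tested. The count of 1377 genes was 507, 435 and 529 without shG9a_1, shG9a_4 or shSCR replicate 3, 903 without shSCR replicate 2 and 2109 without shG9a_1 replicate 2. No label says what the number stands for.

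**Figure D4:**
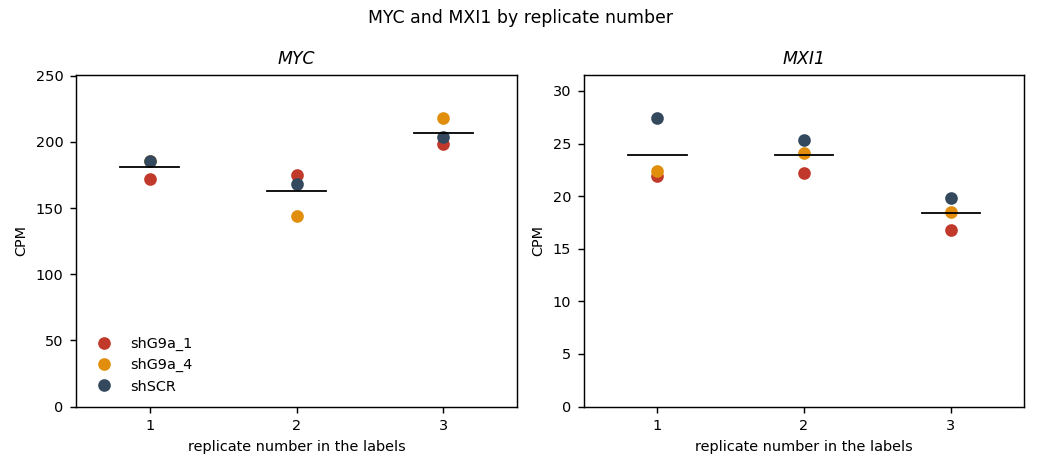
MYC and MXI1 in the 9 libraries, grouped by the replicate number of the labels. The vertical axes give CPM from 0, colours mark the hairpin, and lines mark the mean of the 3 libraries of a number. MYC is highest and MXI1 lowest in the libraries numbered 3 (means of 207 and 18.4 CPM), whichever hairpin they carry.

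Since the libraries keep the strand, reads on the strand opposite to each member could be counted too. For MYC they made up 3.51, 6.12 and 3.78% of stranded reads in shG9a_1 and 3.66, 5.59 and 3.88% in shG9a_4, against 3.95, 6.09 and 3.61% in shSCR, in the order of replicate numbers 1 to 3. The 3 libraries numbered 2 had the highest shares, and their Wilson 95% intervals did not meet those of the 6 others (the lowest bound among them was 5.15% and the highest among the others 4.31%). Of the 1584 genes with at least 50 reads on each strand in every library, 29 (1.83%) had all libraries numbered 2 above the others. The hairpin groups overlapped in this share. The intervals cover counting error only, and the source of these reads, endogenous or ectopic, was not tested. For MLX the opposite-strand share was 11.9 to 15.4%, and the exons of PSMC3IP, a meiotic recombination gene at 18.6 to 22.9 CPM, overlap it there. For MAX, MXD1, MXD4, MNT and MGA it stayed at or below 0.940%, and for MXI1 it was 1.89 to 5.23%. MYCL had too few reads for a stable share, with 0 to 21.4%. MXD1 overlaps SNRNP27, a splicing gene on the same strand at 20.3 to 22.6 CPM, so reads in the shared exons cannot be assigned to either gene.

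**Figure D5:**
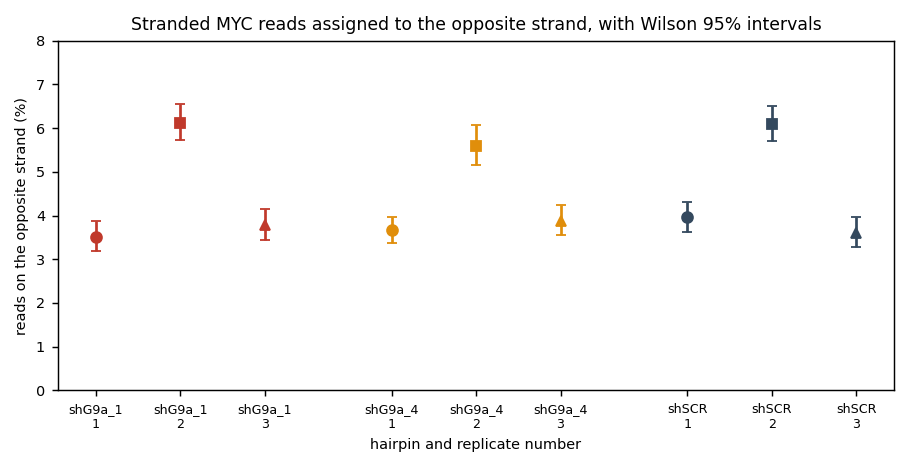
Share of stranded reads at MYC that were assigned to the opposite strand, in percent from 0, for each hairpin and replicate number, with Wilson 95% intervals. The libraries numbered 2 lie between 5.59 and 6.12% in all 3 groups and the 6 others between 3.51 and 3.95%.

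Genes that work with the network were read from lists of known cofactors, corepressors and targets. None of their genes passed an adjusted p of 0.05 in either hairpin comparison by edgeR, without or with the block, and at an unadjusted p under 0.05 the counts per list ran from 0 to 3, where 7.5% of all genes in shG9a_1 and 2.38% in shG9a_4 reached that level. Of 18 MYC cofactors, 1 passed the unadjusted level in shG9a_1 (7.5% of all genes) and 0 in shG9a_4 (2.38%), and their median log2 fold changes were 0.00 in shG9a_1 and -0.02 in shG9a_4 over shSCR. WDR5, a scaffold that anchors MYC on chromatin, was at 0.09 and 0.13 on the log2 scale in shG9a_1 and shG9a_4, and ACTL6A, an actin-like subunit of chromatin remodellers, at -0.19 and -0.09. ZBTB17, which encodes MIZ1, the partner of MYC in repression, was at 0.10 and 0.02. The 18 genes of MYC protein turnover had medians of 0.00 in shG9a_1 and -0.02 in shG9a_4, with 2 and 0 at the unadjusted level, set against the same 7.5% and 2.38%. FBXO32, an F-box protein, had the lowest average of that list, at -0.01 ± 0.57 (SE) in shG9a_1 and -0.60 ± 0.58 in shG9a_4. It ranged from 3.73 to 19.4 CPM and differed between the replicate numbers (adjusted p = 2.0e-05, edgeR). AURKA, a mitotic kinase that stabilises MYCN, had the highest average, at 0.06 and 0.11.

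The antagonists act through corepressor genes. The 16 genes of the SIN3 and histone deacetylase complex had medians of 0.00 in shG9a_1 and 0.02 in shG9a_4. Of these, 0 and 1 were at the unadjusted level, where 7.5% and 2.38% of all genes were. The 1 in shG9a_4 was SUDS3, at 0.16 on the log2 scale (unadjusted p = 0.0273, edgeR) and at 0.07 in shG9a_1. The scaffold SIN3A was at -0.10 and -0.09 on the log2 scale in shG9a_1 and shG9a_4, and ARID4A, another subunit, at 0.17 and 0.16. The 14 PRC1.6 genes that work with MGA and MAX had medians of -0.03 in shG9a_1 and -0.01 in shG9a_4, with 0 at the unadjusted level in both, beside the same 7.5% and 2.38%. Among them E2F6, its DNA-binding repressor, was at -0.14 and -0.07, and PCGF6, its defining Polycomb subunit, at -0.13 and -0.06. Of 18 germline genes that PRC1.6 is known to keep silent, 5 passed the filter on low counts. Of these, 0 reached the unadjusted level in either hairpin, beside the same 7.5% and 2.38% of all genes. SYCE1 and SYCP1, of the synaptonemal complex of meiosis, had no reads in any library. SYCP3, of the same complex, was at 0.104 to 0.301 CPM, with log2 fold changes of 0.58 in shG9a_1 and 0.47 in shG9a_4 and an edgeR adjusted p of 0.831 and 1.00.

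Targets of the network were read in the same way. Of 12 genes reported as activated by MYC through E-boxes, 8 had a negative fold change in shG9a_1 and 9 in shG9a_4, with medians of -0.12 and -0.07. At the unadjusted level were 3 of them in shG9a_1, where 7.5% of all genes were, all with a negative fold change and NCL among them. The 1 at that level in shG9a_4, where 2.38% of all genes were, was CCND2, with a positive fold change. NCL, the nucleolar protein nucleolin, was at -0.16 in shG9a_1 and -0.08 in shG9a_4, SRM, a polyamine synthesis enzyme, at 0.11 and 0.03, and CCND2, a G1 cyclin, at 0.17 and 0.41. All genes tested had medians of 0.00 in both comparisons, with 50.2% and 50.8% of them positive. Of 6 genes reported as repressed by MYC through MIZ1, 5 were tested, with medians of 0.02 in shG9a_1 and 0.03 in shG9a_4, and 1 and 0 at the unadjusted level. The cell cycle inhibitor CDKN1A was at 0.41 in shG9a_1 and 0.10 in shG9a_4 (edgeR adjusted p = 0.592 and 1.00), and CDKN1C, another inhibitor, at 0.46 and 0.30. NDRG1 was at -0.15 in shG9a_1 and -0.003 in shG9a_4, GADD45A at 0.02 and -0.05, and HBP1 at 0.02 and 0.03. CDKN2B, also on this list, had no reads in any of the 9 libraries and was not tested. Of 6 Mondo and MLX targets, 5 were tested, with medians of 0.00 in shG9a_1 and -0.03 in shG9a_4, and 1 and 0 at the unadjusted level. ARRDC4, an arrestin-domain protein, was at 0.45 in shG9a_1 (unadjusted p = 0.0148, adjusted p = 0.607, edgeR) and 0.01 in shG9a_4, and its relative TXNIP, which restrains glucose uptake, at 0.29 and 0.05. The hexokinase HK2 was at -0.14 and -0.03, the lysophospholipid acyltransferase LPCAT3 at -0.15 and -0.08, and PFKFB3, a regulator of glycolysis, at 0.00 and -0.07.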

How the data were processed

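The authors deposited whole-number counts of reads per gene for each library, per the file headers in the layout of STAR, with a column for either strand and a column for both. Builds GRCh37 and hg19 and the tools STAR 2.5.2a, DESeq, R 3.3.1 and edgeR 3.14.0 appear in the submitters' processing notes, with no role or order; no annotation release is given there. STAR leaves multimapped reads uncounted in this layout, and genes with close copies are therefore uncertain. The authors also deposited, per the file headers, a table for each hairpin with scores between 0 and 1 (PPEE and PPDE), read here as posterior probabilities, and linear folds (PostFC and RealFC, ratios); no source used here gives the tool behind them. They list no EHMT2, so their direction was checked against the counts over other genes.

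The reverse-strand counts were used, which held 94.7 to 95.1% of stranded reads. The 4 summary classes that name no gene, 23.2 to 27.7% of read pairs, stayed out of library sizes and tests. The main test was the quasi-likelihood F-test of edgeR 4.0.16 (R 4.3.3) with TMM scaling and filterByExpr, two-sided, in a single fit of 9 libraries with 6 residual degrees of freedom, with Benjamini-Hochberg adjustment over 18435 genes. The test of the replicate number used an additive model with 4 residual degrees of freedom. CPM are read counts scaled by TMM library size, and a log2 fold change, its SE and its 95% interval come from the fit.

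Replicate numbers pair the libraries: deviations from the group means correlated at 0.178 to 0.461 in all 9 same-number pairs. The 18 others ran from -0.327 to 0.169. Their mean of -0.152 follows from subtracting the group means and is no separate evidence of pairing. The block was an alternative fit. Replicates are called biological in the design text of the series, and their counts differed beyond sampling noise (chi-square 25.2 to 78.9 per degree of freedom within groups). Alternatives were other size factors, no filter, DESeq2 1.42.0, the block, unstranded counts, only the compared groups, and leaving out each library. The fit was also run on simulated counts. These held no effect of the replicate number and larger changes than those of the members, so they do not show how the fit performs on the members.

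Of the gene IDs, 55277 took a symbol from a names table and 421 from GENCODE 29. Exon lengths and gene overlaps come from GENCODE 29 and promoters from RefSeq, both on GRCh38, another build than that of the notes, so no coordinates of the files are printed. All 10 members are named. Most other named list genes pass the threshold, are among the 3 highest or lowest of their list, or have a role explained here. Some are given only for a low level. Not every gene among the 3 highest or lowest of a list is named. Members and lists were chosen with earlier results of these data known.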

Additional observations from a re-analysis of the deposited data

How the results depend on the processing

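No member passed an adjusted p of 0.05 in the 30 hairpin results under any of 450 alternative values, by edgeR or DESeq2. For MYCL in shG9a_4 minus shSCR, DESeq2 gave no adjusted p. The number of genes called in shG9a_1 minus shSCR, shG9a_4 minus shSCR and shG9a_1 minus shG9a_4 was 288, 49 and 106 with no filter on low counts and 79, 22 and 6 with DESeq2. With the replicate number as a block it was 143 and 14 in the first pair of comparisons, and the block changed no call of a member. In shG9a_4 minus shSCR it was 1 with unstranded counts and 0 with only the 2 groups compared. Leaving out each library gave 0 to 10 genes in shG9a_1 minus shSCR and 0 to 7 in shG9a_4 minus shSCR. The replicate number called 2874 genes with no filter and 435 to 2109 without a library. The causes were not tested.

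Signs changed only for members whose values lay near 0 or rested on scattered libraries. MNT in shG9a_4 minus shSCR was -0.00167 with other size factors, -0.000223 with no filter, -0.00168 with DESeq2 and -0.0025 with the block. MYC in shG9a_1 minus shG9a_4 was 0.00242 with other size factors, 0.0024 with DESeq2, 0.00912 with the block and 0.0133 with unstranded counts. MAX between replicate numbers 3 and 2 was 0.00192 with unstranded counts. Leaving out each library, the log2 values in shG9a_1 minus shSCR ran from -0.099 to 0.040 for MYC, -0.15 to 0.20 for MYCL, -0.024 to 0.0088 for MXD1, -0.049 to 0.42 for MXD4 and -0.058 to 0.019 for MLX. In shG9a_4 minus shSCR they ran from -0.16 to 0.11 for MYC, -0.25 to 0.28 for MYCL, -0.069 to 0.0042 for MXD1, -0.0895 to 0.39 for MXD3, -0.16 to 0.14 for MNT and -0.0021 to 0.046 for MLX. In shG9a_1 minus shG9a_4 they ran from -0.14 to 0.14 for MYC, -0.24 to 0.28 for MYCL, -0.0025 to 0.062 for MXD1, -0.14 to 0.35 for MXD3, -0.19 to 0.28 for MXD4, -0.19 to 0.030 for MXI1 and -0.082 to 0.099 for MGA. Between numbers 3 and 2 they ran from -0.056 to 0.021 for MAX, -0.22 to 0.23 for MXD4 and -0.040 to 0.018 for MLX. Of 114 values of list genes, signs changed in 7 of 683 recomputed values and in 97 of 1026 without a library. With 3 libraries a group and 13 to 33 reads, MYCL allows no statement on moderate changes.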

Other observations

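Across the 9 libraries, the genes whose log2 CPM was most like that of MYC were SNORD104, a small nucleolar RNA (Pearson r = 0.986), PKMYT1, a kinase that restrains CDK1 (0.986), C1orf198 (0.985), PWWP2B (0.979) and DDRGK1, a factor of protein UFMylation (0.978). These 9 libraries share replicate numbers and hairpins, the genes were picked for their correlation, and the values are descriptions only. PKMYT1 ranged from 14.8 to 33.0 CPM and differed between the replicate numbers (edgeR adjusted p = 0.0471), by 0.65 on the log2 scale between numbers 3 and 2. Its log2 fold change was -0.03 in shG9a_1 and -0.08 in shG9a_4 over shSCR. Among the other members, the correlation with MYC was 0.75 for MXD3, 0.70 for MNT, 0.44 for MGA and 0.24 for MXD4. It was -0.01 for MLX, -0.12 for MAX, -0.61 for MYCL, -0.63 for MXI1 and -0.70 for MXD1.

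Between the replicate numbers, MXD4 was not called with the filter on low counts and was called without it (edgeR adjusted p = 0.00227). MXD3 and MNT were called without shG9a_1 replicate 2 (edgeR adjusted p = 0.0376 and 0.0441).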
